A study of Arabidopsis thaliana with 6 samples.

Results

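Seedlings of apc8-1 were compared with seedlings of nrpe1-12 across all loci of Arabidopsis thaliana. This direct comparison of 2 mutants used 4 of the 6 RNA libraries in the series, 2 of apc8-1 and 2 of nrpe1-12, and the 2 libraries of Col-0 (wild type) entered the same fit and are given as a further level. All 3 genotypes were 14-day-old untreated seedlings grown on MS plates under a light and dark cycle. Total RNA was sequenced after removal of ribosomal RNA. The kind of lesion in either allele, and whether the duplicates came from separate cultures, are details the sources used here do not give, so p-values here cover only the spread from library to library, which may be technical. Of 32594 loci in the deposited table, 17323 had at least 1 FPKM (fragments per kilobase of a transcript and per sequenced depth) in at least 2 of the 4 mutant libraries, and these were tested. At the edge of this filter, AT4G02005 was just inside with a second highest level of 1.00015 FPKM, and AT1G78940 was just outside at 0.999845 FPKM.

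APC8 belongs to the anaphase promoting complex or cyclosome (APC/C), a ubiquitin ligase of many subunits that marks mitotic cyclins and other cell cycle proteins for degradation. NRPE1 is the largest subunit of RNA polymerase V, whose transcripts guide RNA-directed DNA methylation (RdDM), a pathway that keeps transposons and some genes silent in plants. DMS3 is a protein that RNA polymerase V needs for its transcription. Since both mutants are set against each other here, a difference can come from either line, and the Col-0 values beside each result show where the wild type stood.

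The 4 mutant libraries had similar depth. By estimate, 1 FPKM stood for 16.15 and 16.15 fragments per kilobase in apc8-1 and for 16.5 and 13.75 in nrpe1-12, so that low levels rest on few fragments, and these estimates cover counting only. Chloroplast transcripts other than rbcL made up 28.4 and 30.2% of the FPKM in apc8-1, 28.6 and 29.0% in nrpe1-12, and 24.1 and 24.4% in Col-0. The rbcL gene is listed at 0 in both mutants and in 1 Col-0 library but at 45404.5 FPKM in the other, so a listed 0 need not mean absence of transcript. Pearson's r of log2(FPKM + 1) over the tested loci, which share libraries and are no replicates, was 0.989 between the apc8-1 libraries, 0.990 between the nrpe1-12 libraries and 0.966 to 0.968 between the mutants. The root markers SHR and SCR, the only members of a list of 13 that were tested, were not called by limma (log2 fold changes -0.08 and 0.03), and neither had an unadjusted p below 0.05. The summed level of the 12 root markers in the table was 18.5 and 18.5 FPKM in apc8-1, 17.9 and 20.01 FPKM in nrpe1-12, and 26.4 and 27.7 FPKM in Col-0, with 2 to 5 of the 12 listed at 0 in a mutant library.

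APC8 itself (AT3G48150, chromosome 3, 17779653 to 17782645) was at 1.80 and 1.93 FPKM in apc8-1, 1.51 and 1.48 FPKM in nrpe1-12 and 1.29 and 1.64 FPKM in Col-0. Both apc8-1 libraries were above those of nrpe1-12, but the difference was not called (log2 fold change 0.20, SE 0.15, adjusted p = 0.409). NRPE1 itself (AT2G40030, chromosome 2, 16714494 to 16723631) was at 3.04 and 3.29 FPKM in apc8-1, 6.46 and 5.94 FPKM in nrpe1-12 and 2.71 and 2.91 FPKM in Col-0. Both libraries labelled nrpe1-12 were the highest, and NRPE1 was lower in apc8-1 (log2 fold change -0.79, SE 0.12, adjusted p = 0.003). Because the lesions are not given, neither transcript level checks the genotype labels. DMS3 (AT3G49250) had 3.52 and 3.32 FPKM in apc8-1, 2.97 and 2.71 FPKM in nrpe1-12 and 2.90 and 2.68 FPKM in Col-0, with apc8-1 above nrpe1-12 in each library and no call (log2 fold change 0.20, adjusted p = 0.317). Such separation was common. The libraries of both mutants did not overlap at 28.4% of all tested loci with apc8-1 higher, and at 29.3% with apc8-1 lower.

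With limma on log2(FPKM + 1) and Benjamini-Hochberg adjustment over all 17323 loci, 3331 loci were called at an adjusted p below 0.05, which is 19.2% of those tested. Of these, 1305 (7.53%) were higher and 2026 (11.7%) were lower in apc8-1 than in nrpe1-12. The decreases were also the deeper ones: 98 loci (0.566%) were called and at least 2-fold higher, against 422 (2.44%) called and at least 2-fold lower, and 8 (0.0462%) were at least 4-fold higher, against 80 (0.462%) at least 4-fold lower. Increases were 39.2% of the called loci, 46.4% (1570 against 1812 decreases) after quantile normalization and 45.2% (1542 against 1868) without the genes of organelles and ribosomal RNA. The median over all tested loci was 0.00. Fold changes are differences of log2(FPKM + 1), so changes of low loci are understated. A single signed value given in brackets after a gene is its log2 fold change. Only 154 loci passed the filter through apc8-1 alone and 339 through nrpe1-12 alone, and such loci could hardly be called in the opposite direction. Leaving out 1 library lowered the counts: without apc8-1 replicate 1 or 2 there were 861 and 855 higher loci, without nrpe1-12 library a or b 768 and 656, and without these nrpe1-12 libraries 1144 and 1034 lower loci.

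**Figure D1:**
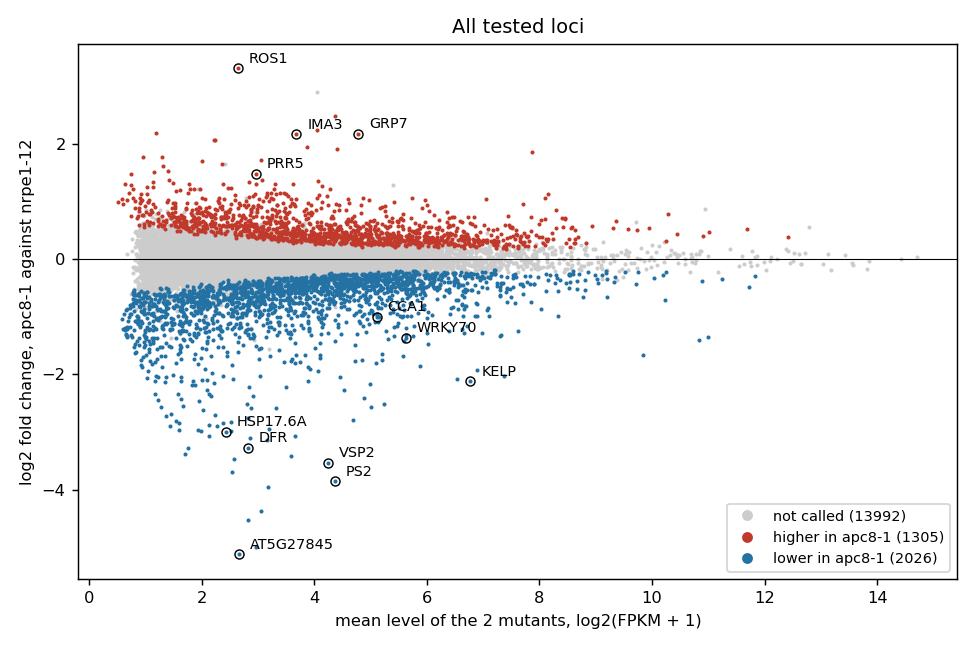
Each point is 1 of the 17323 tested loci, with the mean level of both mutants on the x axis, log2(FPKM + 1), and the log2 fold change of apc8-1 against nrpe1-12 on the y axis. Red points (1305) were called higher and blue points (2026) lower in apc8-1. The blue cloud reaches -5.13 at AT5G27845, whereas the called increases end at 3.31, at ROS1.

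Col-0 did not side with 1 mutant. Among the 422 loci at least 2-fold lower in apc8-1, the Col-0 mean was nearer to nrpe1-12 at 274 (64.9%) and nearer to apc8-1 at 148 (35.1%). At 152 of the 422 Col-0 was above both mutants, at 212 it lay between them, and at 58 it was below both. Among the 98 loci at least 2-fold higher in apc8-1, Col-0 was nearer to apc8-1 at 61 (62.2%) and nearer to nrpe1-12 at 37 (37.8%). Over all tested loci these shares were 47.1% nearer to apc8-1 and 52.9% nearer to nrpe1-12. No test was made of these positions.

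The gene with the largest called increase was ROS1 (AT2G36490, chromosome 2, 15307950 to 15314807), a DNA glycosylase that removes methylated cytosine and whose own transcription is known to need RdDM at its promoter. ROS1 had 18.8 and 18.6 FPKM in apc8-1, 1.103 and 0.876 FPKM in nrpe1-12 and 15.6 and 13.97 FPKM in Col-0. It was near 1 FPKM in both nrpe1-12 libraries and far above that in all others, without overlap (log2 fold change 3.31, SE 0.11, adjusted p = 1.70e-06). AT1G62770, a pectin methylesterase inhibitor family gene, had 43.4 and 52.2 FPKM in apc8-1, 8.62 and 6.83 FPKM in nrpe1-12 and 57.8 and 65.6 FPKM in Col-0, so it was low in nrpe1-12 only (log2 fold change 2.49, SE 0.13, adjusted p = 1.53e-05). GRP7 (AT2G21660), a clock-controlled glycine-rich RNA-binding protein, had 58.0 and 56.5 FPKM in apc8-1, 12.2 and 11.7 FPKM in nrpe1-12 and 37.2 and 43.6 FPKM in Col-0 (log2 fold change 2.17, SE 0.09, adjusted p = 5.14e-06). The nrpe1-12 libraries were again the lowest, and apc8-1 was above Col-0. AT1G19530, a gene of unknown function, had 35.7 and 33.9 FPKM in apc8-1, 6.77 and 6.38 FPKM in nrpe1-12 and 20.102 and 13.8 FPKM in Col-0 (log2 fold change 2.24, adjusted p = 5.85e-05). AT1G56300, a DnaJ chaperone family gene, had 37.5 and 42.6 FPKM in apc8-1, 9.58 and 10.3 FPKM in nrpe1-12 and 34.5 and 33.3 FPKM in Col-0 (log2 fold change 1.90, adjusted p = 9.18e-06). In both genes each apc8-1 library was above each library of the other genotypes.

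AT4G35720, a gene of unknown function, had 8.93 and 8.32 FPKM in apc8-1, 1.41 and 1.18 FPKM in nrpe1-12 and 14.6 and 11.96 FPKM in Col-0 (log2 fold change 2.07, adjusted p = 3.77e-05). The LOB domain gene LBD26 (AT3G27940) had 7.08 and 9.75 FPKM in apc8-1, 1.97 and 0.685 FPKM in nrpe1-12 and 2.85 and 2.73 FPKM in Col-0 (log2 fold change 2.06, adjusted p = 0.00123). AT2G42110, of unknown function, had 6.17 and 6.21 FPKM in apc8-1, 0.875 and 1.60 FPKM in nrpe1-12 and 3.48 and 3.14 FPKM in Col-0 (log2 fold change 1.70, adjusted p = 4.09e-04). The nrpe1-12 libraries were the lowest for each of these genes. AT2G33830, a dormancy and auxin associated family gene, was among the most abundant increases, at 443 and 440.0 FPKM in apc8-1, 132 and 111 FPKM in nrpe1-12 and 183 and 191 FPKM in Col-0 (log2 fold change 1.86, adjusted p = 9.18e-06). Its apc8-1 libraries were far above both other genotypes.

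Where both mutants averaged 20 FPKM or more, AT2G33830 had the largest increase. Next to it stood several increases of about 1 on the log2 scale. XTH4, a xyloglucan endotransglucosylase of the cell wall, had 392.3 and 394 FPKM in apc8-1, 191 and 187 FPKM in nrpe1-12 and 309 and 312 FPKM in Col-0 (log2 fold change 1.06, adjusted p = 1.39e-05). MEE14 (log2 fold change 1.05), the expansin EXPA11 (1.02), which loosens cell walls, and 3xHMG-box2 (1.03), an HMG-box protein that binds mitotic chromosomes, were higher by similar amounts. KELP, a gene of the transcriptional coactivator p15 family, had the largest decrease at this level, with 51.9 and 51.3 FPKM in apc8-1, 223 and 231 FPKM in nrpe1-12 and 43.5 and 47.9 FPKM in Col-0 (log2 fold change -2.12, SE 0.07, adjusted p = 1.46e-06). It was high in both nrpe1-12 libraries only. The peroxidase PRXCB had 46.1 and 42.2 FPKM in apc8-1, 194 and 185 FPKM in nrpe1-12 and 168 and 181 FPKM in Col-0 (log2 fold change -2.08, adjusted p = 1.76e-06). LURP1, which is known to be induced by an oomycete pathogen, had 59.7 and 60.6 FPKM in apc8-1, 224 and 241 FPKM in nrpe1-12 and 172 and 165 FPKM in Col-0 (log2 fold change -1.93, adjusted p = 1.46e-06). Both were low in apc8-1 only. The trypsin inhibitor TI1 (log2 fold change -1.86) and SIB1 (-1.69), a sigma factor binding protein, were lower too. GLP9, a germin-like protein gene, had lower levels, 0.667 and 0.939 FPKM in apc8-1, 19.4 and 18.4 FPKM in nrpe1-12 and 9.58 and 12.2 FPKM in Col-0, and a larger difference (log2 fold change -3.47, adjusted p = 5.14e-06).

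**Figure D2:**
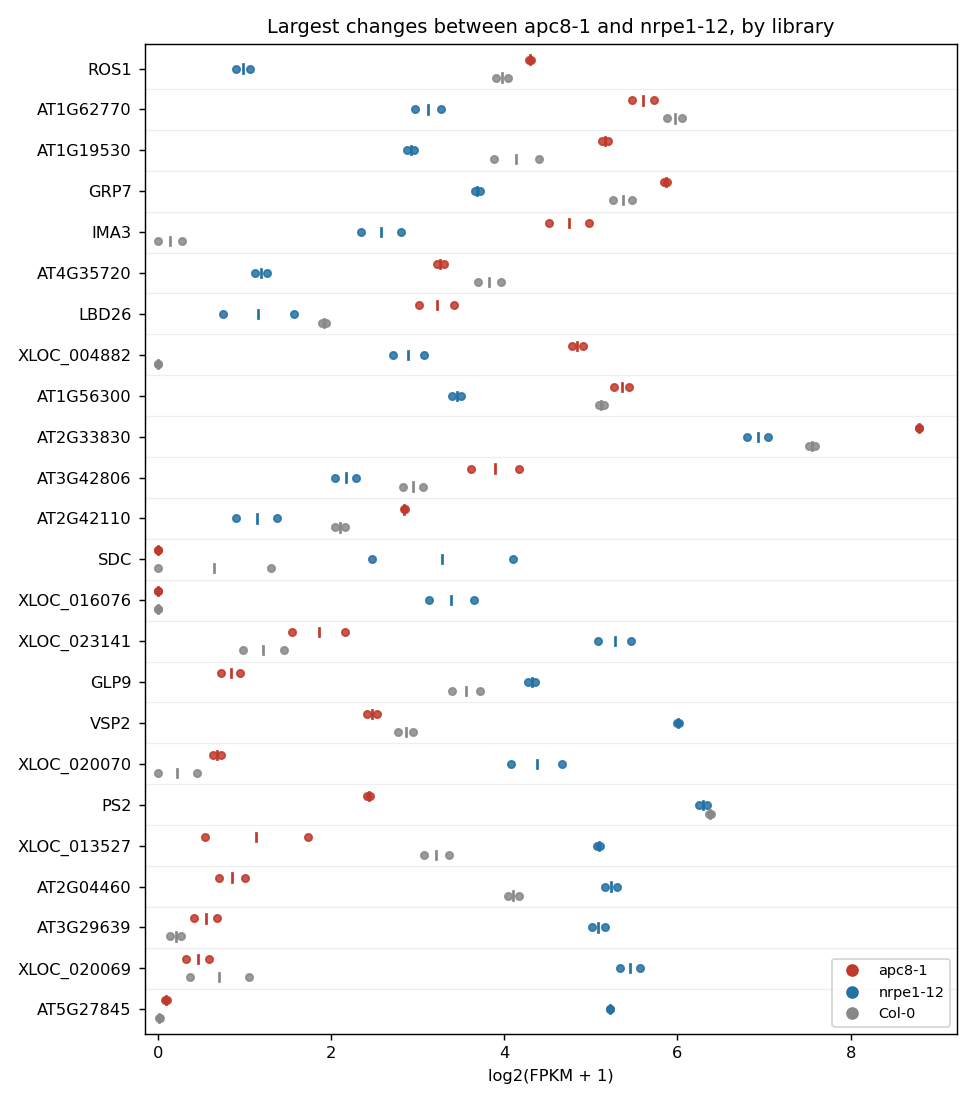
Level of each library, log2(FPKM + 1), at the 12 loci with the largest called increases (upper 12 rows) and the 12 with the largest called decreases (lower 12 rows) in apc8-1 against nrpe1-12. Ranked were only loci whose higher mutant averaged 5 FPKM or more and whose libraries did not overlap, without loci that join several genes. Points are libraries (apc8-1 red, nrpe1-12 blue, Col-0 grey) and ticks are means of 2. Among the decreases the blue points stand to the right of the red ones, while the grey points lie near the red ones at AT5G27845 and near the blue ones at PS2.

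Several of the deepest decreases in apc8-1 were at loci that were near 0 FPKM in Col-0 and transcribed in nrpe1-12. AT5G27845 (chromosome 5, 9868348 to 9872594), a transposable element gene, had 0.0779 and 0.0607 FPKM in apc8-1, 36.2 and 36.4 FPKM in nrpe1-12 and 0.013 and 0.0172 FPKM in Col-0 and the largest difference of all tested loci (log2 fold change -5.13, SE 0.13, adjusted p = 8.41e-07). It was near 0 in apc8-1 and Col-0 and above 36 FPKM in both nrpe1-12 libraries. AT5G27850 (chromosome 5, 9872866 to 9876482), a ribosomal protein L18e/L15 family gene that starts 271 bases further along on the same strand, had 86.9 and 75.6 FPKM in apc8-1, 342 and 323 FPKM in nrpe1-12 and 67.9 and 65.0 FPKM in Col-0 (log2 fold change -2.02, adjusted p = 4.33e-06). The neighbour had transcript in all genotypes, with the highest level in both nrpe1-12 libraries.

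On chromosome 3, AT3G29639 (chromosome 3, 11471132 to 11481270) had 0.611 and 0.339 FPKM in apc8-1, 31.4 and 34.8 FPKM in nrpe1-12 and 0.102 and 0.21 FPKM in Col-0 (log2 fold change -4.54, adjusted p = 1.70e-06). A second assembled locus with this gene name and the same span had a log2 fold change of -2.69. The unannotated locus XLOC_020069 (chromosome 3, 11470442 to 11470911), left of this gene, had 0.253 and 0.512 FPKM in apc8-1, 39.5 and 46.6 FPKM in nrpe1-12 and 1.07 and 0.291 FPKM in Col-0 (log2 fold change -5.00, adjusted p = 9.62e-06). XLOC_020070 (chromosome 3, 11481890 to 11482676), on its right, had 0.556 and 0.659 FPKM in apc8-1, 15.9 and 24.5 FPKM in nrpe1-12 and 0 and 0.375 FPKM in Col-0 (log2 fold change -3.69, adjusted p = 3.77e-05). These 4 assembled loci were low in apc8-1 and in Col-0 and high in nrpe1-12. A further locus of this stretch, AT3G29638, starts 220 bases from XLOC_020069 and was not tested. Its mean was 0 FPKM in apc8-1, 0.159 FPKM in nrpe1-12 and 0 FPKM in Col-0. Of the 80 loci at least 4-fold lower in apc8-1, 12 (15%) had another such locus within 10 kb, and 1.47% of all tested loci had 1 of the 80 that near. None of the 8 loci at least 4-fold higher had one. The 12 include neighbouring pieces of 1 stretch, such as AT3G29639 with XLOC_020069 and XLOC_020070, and the adjoining AT5G27845 and AT5G27850. They are thus not 12 independent places.

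The F-box gene SDC (AT2G17690), a textbook target of RdDM, was listed at 0 in both apc8-1 libraries, had 16.1 and 4.56 FPKM in nrpe1-12 and 1.48 and 0 FPKM in Col-0, and was called lower in apc8-1 (adjusted p = 0.0045). It passed the filter through nrpe1-12 alone. CML41, a calmodulin-like gene with a methylated promoter, had 6.90 and 7.43 FPKM in apc8-1, 18.5 and 15.65 FPKM in nrpe1-12 and 9.46 and 8.09 FPKM in Col-0 (log2 fold change -1.14, adjusted p = 4.40e-04), with nrpe1-12 highest in both libraries. QQS, an orphan gene of starch metabolism whose level follows DNA methylation, went the other way. It stood at 4.32 and 1.21 FPKM in apc8-1 and at 0.582 and 0.588 FPKM in Col-0, and was listed at 0 in both nrpe1-12 libraries (adjusted p = 0.0106). It passed the filter through apc8-1 alone, and its call was lost without nrpe1-12 library a (adjusted p = 0.0539) or b (adjusted p = 0.0584). These were the 3 tested genes of 6 listed as silenced by DNA methylation. Their median of -1.14 stood at 0.37 without nrpe1-12 library a and at 0.26 without library b, because SDC was then no longer tested.

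Transposable element genes as a class were called about as often as all loci, but less often among those that passed through both mutants. Of 84 tested, 5 were higher (5.95%, against 7.53% of all tested loci) and 11 lower (13.1%, against 11.7%), with a median of 0.00. All 8 that passed through nrpe1-12 alone were among the decreases. Of the 72 with at least 1 FPKM in a library of each mutant, 3 were higher and 3 lower (4.17% each). Under the same condition 7.40% of all tested loci were higher and 10.7% lower. The class had 2 decreases without nrpe1-12 library a or b, and 3 increases without library b or apc8-1 replicate 1 or 2. AT2G04460 (chromosome 2, 1547508 to 1549265) had 0.633 and 1.02 FPKM in apc8-1, 38.6 and 35.001 FPKM in nrpe1-12 and 15.5 and 17.0 FPKM in Col-0 (log2 fold change -4.38, adjusted p = 1.24e-06). It was near 1 FPKM in apc8-1 only, and nrpe1-12 was above Col-0. AT4G04293 (chromosome 4, 2076832 to 2077361) had 0.612 and 0.41 FPKM in apc8-1, 12.3 and 10.9 FPKM in nrpe1-12 and 0.862 and 0.233 FPKM in Col-0 (log2 fold change -3.06, adjusted p = 6.27e-05). AT5G26590 (chromosome 5, 9381992 to 9382331) was listed at 0 in all libraries of apc8-1 and Col-0 but had 4.49 and 3.73 FPKM in nrpe1-12 (adjusted p = 7.98e-05). In these last 2 genes nrpe1-12 stood alone. AT3G42806 had the largest increase of the class, at 11.3 and 17.0 FPKM in apc8-1, 3.14 and 3.89 FPKM in nrpe1-12 and 7.34 and 6.12 FPKM in Col-0 (log2 fold change 1.72, adjusted p = 6.05e-04). AT1G20390, at 11.2 and 10.1 FPKM in apc8-1, 4.85 and 4.49 FPKM in nrpe1-12 and 4.83 and 5.41 FPKM in Col-0, was high in apc8-1 only (log2 fold change 1.04, adjusted p = 5.49e-04). Of the 11 decreases, Col-0 was nearer to apc8-1 at 9.

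Unannotated loci between genes were called lower in apc8-1 more often than loci in general in the fit of all 6 libraries. They are known only as assembled transcripts, so their entry may have depended on the libraries where they were high, which was not tested. Neighbouring pieces of 1 stretch count as separate loci. Of 91 tested, 4 were higher (4.40%, against 7.53%) and 29 lower (31.9%, against 11.7%), with a median of -0.11. Of the 91, 17 passed through nrpe1-12 alone and could hardly be called higher. Of the 71 with at least 1 FPKM in a library of each mutant, 2 were higher and 13 lower (18.3%, against 10.7% of all tested loci under the same condition). With either nrpe1-12 library left out, far fewer loci of the class were lower, and fewer were lower over all loci too. With apc8-1 replicate 1 left out more loci of the class were higher, though fewer were over all loci. The shares above hold for the full fit only. At 19 of the 29 decreases Col-0 was nearer to apc8-1. XLOC_013527 (chromosome 2, 1393401 to 1393894) had 0.462 and 2.33 FPKM in apc8-1, 32.7 and 33.5 FPKM in nrpe1-12 and 7.44 and 9.26 FPKM in Col-0 (log2 fold change -3.95, SE 0.32, adjusted p = 1.38e-04), and apc8-1 replicate 1 was the lowest library. XLOC_016076 (chromosome 3, 18843645 to 18844448) was listed at 0 in all libraries of apc8-1 and Col-0 but had 11.5 and 7.76 FPKM in nrpe1-12. On chromosome 2 the loci XLOC_013533, XLOC_013534 and XLOC_013535, which lie between 17485331 and 17488840, were also listed at 0 in all apc8-1 and Col-0 libraries. In nrpe1-12 they had 1.88 and 1.08, 1.47 and 5.04 and 1.36 and 1.64 FPKM, and all 3 were called lower in apc8-1. XLOC_001970 (chromosome 1, 13477664 to 13478532) was the largest increase of the class, at 3.95 and 3.79 FPKM in apc8-1, 0 and 0.134 FPKM in nrpe1-12 and 0.195 and 0 FPKM in Col-0. It was high in both apc8-1 libraries only.

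Of 52 tested unannotated loci antisense to a gene, 4 were higher (7.69%, against 7.53% of all tested loci) and 5 lower (9.62%, against 11.7%), shares near those of all loci. Without nrpe1-12 library b 2 were higher and 2 lower, and without apc8-1 replicate 2 there were 2 decreases. Whether fragments were counted by strand is a detail the sources used here do not give, so these levels are uncertain. XLOC_023141, antisense to AT4G08020 (chromosome 4, 4830822 to 4843862), had 3.48 and 1.94 FPKM in apc8-1, 33.0 and 43.2 FPKM in nrpe1-12 and 1.74 and 0.975 FPKM in Col-0 (log2 fold change -3.42, adjusted p = 6.79e-05). The transposable element gene AT4G08013 spans the same bases on the opposite strand, so reads of both loci may be mixed. It had 0.0167 and 0.0389 FPKM in apc8-1, 1.91 and 1.99 FPKM in nrpe1-12 and 0.00476 and 0.0194 FPKM in Col-0 (log2 fold change -1.52, adjusted p = 7.13e-04). XLOC_004882, antisense to AT1G13609 (chromosome 1, 4662682 to 4663476), had 26.5 and 29.0 FPKM in apc8-1 and 7.42 and 5.58 FPKM in nrpe1-12 (log2 fold change 1.95, adjusted p = 7.98e-05), and it was listed at 0 in Col-0. Both mutants thus had transcript at this locus, and apc8-1 had more.

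**Figure D3:**
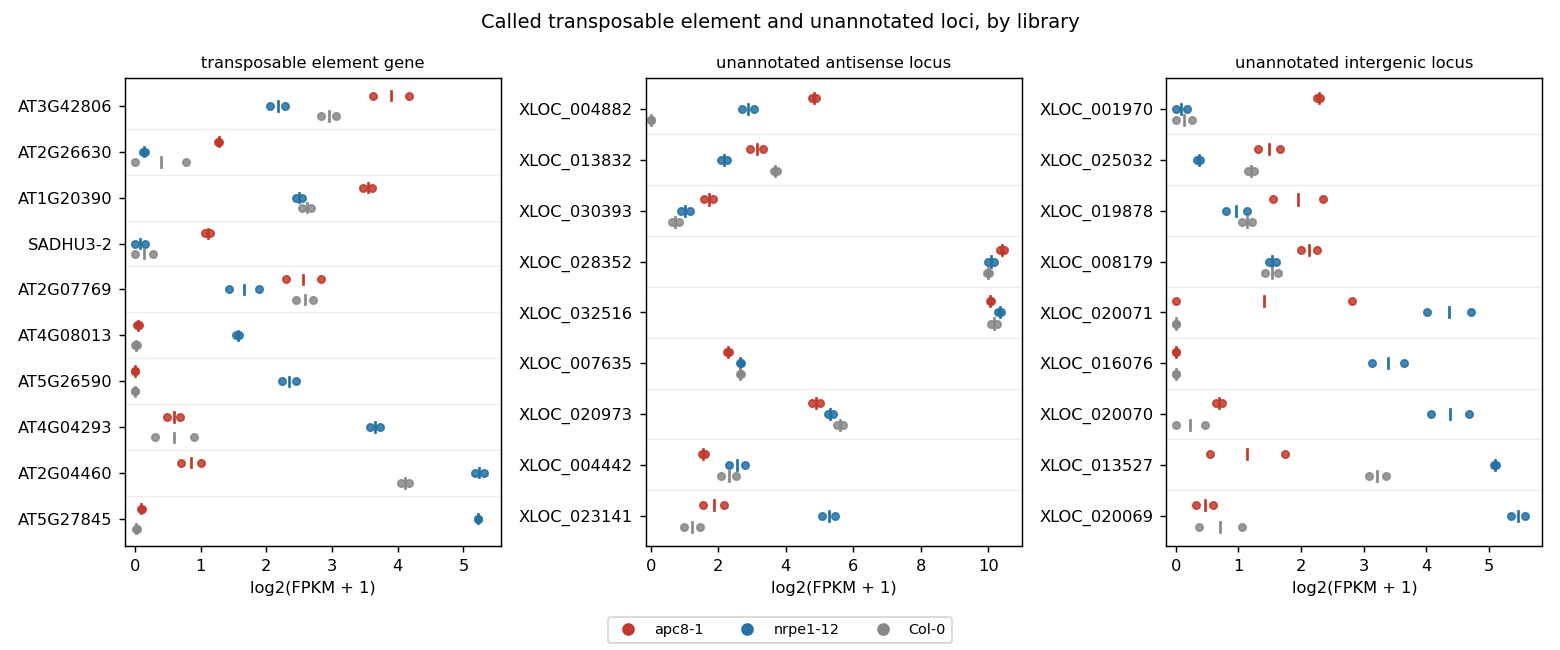
Level of each library, log2(FPKM + 1), for up to 5 called loci in each direction, among transposable element genes (left), loci antisense to a gene (middle) and loci between genes (right). Points are libraries (apc8-1 red, nrpe1-12 blue, Col-0 grey) and ticks are means of 2. At AT5G27845, AT5G26590, XLOC_016076 and XLOC_020069 the blue points stand alone, whereas XLOC_004882 is at 0 in Col-0 only.

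Of 195 tested annotated noncoding RNA genes, 17 were higher (8.72%, against 7.53% of all tested loci) and 21 lower (10.8%, against 11.7%), shares near those of all loci. Leaving out an apc8-1 library gave 10 and 8 increases, and leaving out nrpe1-12 library a or b gave 9 and 6 increases and 13 and 12 decreases. AT4G04223 (chromosome 4, 2036511 to 2037816) had 12.7 and 17.0 FPKM in apc8-1, 50.4 and 52.9 FPKM in nrpe1-12 and 11.0 and 8.32 FPKM in Col-0 and was high in nrpe1-12 only (log2 fold change -1.75, adjusted p = 2.12e-04). AT3G12502 had 2.24 and 3.57 FPKM in apc8-1, 9.14 and 7.76 FPKM in nrpe1-12 and 16.1 and 13.6 FPKM in Col-0 (log2 fold change -1.29, adjusted p = 0.00176), with apc8-1 the lowest genotype. Among the increases, AT5G01215 had 82.0 and 70.6 FPKM in apc8-1, 36.7 and 35.1 FPKM in nrpe1-12 and 82.4 and 76.9 FPKM in Col-0 (log2 fold change 1.06, adjusted p = 1.16e-04), with nrpe1-12 the lowest. AT1G58590 had lower levels, 2.197 and 2.13 FPKM in apc8-1, 0.316 and 0.345 FPKM in nrpe1-12 and 1.57 and 2.90 FPKM in Col-0 (log2 fold change 1.25, adjusted p = 0.0048). Of 58 tested pseudogenes, 2 were higher (3.45%, against 7.53% of all tested loci) and 10 lower (17.2%, against 11.7%), but 6 were lower without apc8-1 replicate 2, 5 without nrpe1-12 library a and 4 without library b, and 1 was higher without any 1 library other than apc8-1 replicate 2. Among the decreases were AT3G48650 (log2 fold change -1.25) and RLP49 (-1.03). Of 60 tested chloroplast genes 2 were higher and 2 lower (3.33% each), below the 7.53% and 11.7% of all tested loci. Of 66 tested mitochondrial genes 2 were higher (3.03%, against 7.53%) and 7 lower (10.6%, near the 11.7% of all tested loci).

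Of 23 tested genes of the RdDM machinery (30 listed), 2 were higher (8.70%, against 7.53% of all tested loci) and 2 lower (8.70%, against 11.7%), shares near those of all loci, with a median of 0.13. Of the 4 calls, that of NRPE1 alone was kept in every alternative tried. DRM2, the methyltransferase of RdDM, had 5.22 and 5.28 FPKM in apc8-1, 3.14 and 3.29 FPKM in nrpe1-12 and 3.76 and 3.87 FPKM in Col-0 (log2 fold change 0.57, adjusted p = 0.01), and its call was lost without nrpe1-12 library a (adjusted p = 0.055). The calls of the chromatin remodeller CLSY1 (log2 fold change 0.43, adjusted p = 0.0493) and of the histone methyltransferase homologue SUVH9 (log2 fold change -0.31, adjusted p = 0.0365) were lost under several alternatives, most of all without apc8-1 replicate 2 (adjusted p = 0.182 and 0.161). Without nrpe1-12 library a no gene of the list was higher, and without any other 1 library 1 was, while 1 was lower without any 1 library other than apc8-1 replicate 1. Of 12 tested genes of methylation maintenance (13 listed), 3 were higher (25%, against 7.53% of all tested loci) and 1 lower (8.33%, against 11.7%). Their median was 0.09. VIM1, which recruits the maintenance methyltransferase to hemimethylated DNA, had 11.2 and 11.2 FPKM in apc8-1, 7.61 and 7.24 FPKM in nrpe1-12 and 7.55 and 7.42 FPKM in Col-0 and was higher in apc8-1 than in all other libraries (log2 fold change 0.54, adjusted p = 0.00477). MET1, that methyltransferase, had a log2 fold change of 0.44, and its call was lost without any 1 of the 4 mutant libraries (adjusted p = 0.0705 to 0.0886). The calls of CMT3 (0.65) and of the histone demethylase IBM1 (-0.39) were lost without apc8-1 replicate 2 (adjusted p = 0.193 and 0.0852) or nrpe1-12 library b (adjusted p = 0.214 and 0.0824). CMT3 was also lost without a Col-0 library, and IBM1 without nrpe1-12 library a (adjusted p = 0.0848). In those fits 1 maintenance gene was higher without apc8-1 replicate 2 or nrpe1-12 library b. Of the 6 demethylation genes only ROS1 was called. The glycosylases DME, DML2 and DML3, the phosphatase ZDP and the acetyltransferase IDM1 had log2 fold changes from -0.28 to 0.25. Without nrpe1-12 library a 1 of them was lower.

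Genes of mitosis were higher in apc8-1. Of 28 tested genes of the G2/M phase (32 listed), 16 were higher (7.53% of all tested loci were) and none lower, and 27 had a log2 fold change above 0, with a median of 0.66 against 0.00 over all tested loci. Of the 26 that had at least 1 FPKM in a library of each mutant, 15 were higher. KN (AT1G08560), the syntaxin KNOLLE of the growing cell plate, had 23.8 and 21.7 FPKM in apc8-1, 9.81 and 11.1 FPKM in nrpe1-12 and 13.4 and 13.5 FPKM in Col-0 (log2 fold change 1.05, SE 0.09, adjusted p = 2.14e-04). TPX2, a spindle assembly factor, had 11.9 and 14.1 FPKM in apc8-1, 5.999 and 6.64 FPKM in nrpe1-12 and 7.31 and 6.08 FPKM in Col-0 (log2 fold change 0.93, adjusted p = 0.00168). Both genes were highest in the apc8-1 libraries, while nrpe1-12 was near or below Col-0. PLE, a microtubule-bundling protein of cytokinesis, had 7.28 and 7.64 FPKM in apc8-1, 3.46 and 3.72 FPKM in nrpe1-12 and 5.50 and 6.15 FPKM in Col-0 (log2 fold change 0.88, adjusted p = 0.00125). CYCB1;4, a B-type cyclin and thus of the family the APC/C targets, had 9.15 and 10.1 FPKM in apc8-1, 4.79 and 4.87 FPKM in nrpe1-12 and 6.99 and 5.74 FPKM in Col-0 (log2 fold change 0.87, adjusted p = 0.00191). MAD2, a spindle checkpoint protein, had 11.0 and 12.01 FPKM in apc8-1, 5.97 and 6.68 FPKM in nrpe1-12 and 7.52 and 7.82 FPKM in Col-0 (log2 fold change 0.77, adjusted p = 0.00157). In these 3 genes the order was apc8-1, Col-0, nrpe1-12, without overlap. The mitotic kinase CDKB2;1 (0.84) and the cyclins CYCB2;2 (0.81), CYCB2;3 (0.82) and CYCB1;2 (0.73) were higher as well on the log2 scale, whereas CYCB1;1 (0.19, adjusted p = 0.378) was not called. In whole seedlings, more dividing cells and more RNA per cell cannot be told apart. Leaving out nrpe1-12 library a or b left 10 of the 28 called in each case. At 13 of the 16 increases Col-0 was nearer to nrpe1-12.

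Among 8 activators and inhibitors of the APC/C, 3 were higher (37.5%, against 7.53% of all tested loci), all of them activators, and the median was 0.41. Among the 7 that passed through both mutants 3 were higher as well. CDC20.1 (AT4G33270), which brings substrates to the complex in mitosis, had 12.5 and 13.5 FPKM in apc8-1, 5.45 and 5.24 FPKM in nrpe1-12 and 5.65 and 5.63 FPKM in Col-0 (log2 fold change 1.14, SE 0.10, adjusted p = 1.81e-04). CCS52B, a related activator, had 11.5 and 14.4 FPKM in apc8-1, 5.95 and 5.50 FPKM in nrpe1-12 and 6.59 and 6.03 FPKM in Col-0 (log2 fold change 1.04, adjusted p = 9.41e-04). In both genes nrpe1-12 and Col-0 were close together and apc8-1 was above them. CDC20.2, a near copy of CDC20.1 whose reads cannot be cleanly separated from it, had 4.01 and 5.01 FPKM in apc8-1, 2.01 and 2.55 FPKM in nrpe1-12 and 1.69 and 2.71 FPKM in Col-0 (log2 fold change 0.75, adjusted p = 0.0283), and its call was lost without apc8-1 replicate 2 (adjusted p = 0.132), nrpe1-12 library a (adjusted p = 0.14) or b (adjusted p = 0.065). CCS52A1 and CCS52A2, activators used in endoreduplication, were not called (-0.01 and 0.05). None of the 12 APC/C subunits was called by limma in the fit of all 6 libraries, with log2 fold changes from -0.25 (APC13) to 0.63 (APC11), 2 had an unadjusted p below 0.05, and 1 was called without apc8-1 replicate 1.

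Of 17 tested S phase genes (20 listed), 2 were higher (11.8%, against 7.53% of all tested loci) and none lower, with a median of 0.12. PCNA1, the sliding clamp of DNA replication, had 7.74 and 7.69 FPKM in apc8-1, 4.69 and 4.94 FPKM in nrpe1-12 and 6.35 and 6.90 FPKM in Col-0 (log2 fold change 0.58, adjusted p = 0.00587), with nrpe1-12 the lowest. Without apc8-1 replicate 1 or either nrpe1-12 library 1 of them was higher. The call of the licensing factor CDT1B (0.66) was lost without apc8-1 replicate 1 (adjusted p = 0.091), nrpe1-12 library a (adjusted p = 0.097) or b (adjusted p = 0.0641). Of 7 tested DNA damage genes 1 was higher (14.3%, against 7.53% of all tested loci) and none lower. It was GMI1 (0.55), and that call was lost when any 1 of the 4 mutant libraries was left out. There were 2 calls without Col-0 replicate 1 or 2 and none without apc8-1 replicate 1 or an nrpe1-12 library.

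**Figure D4:**
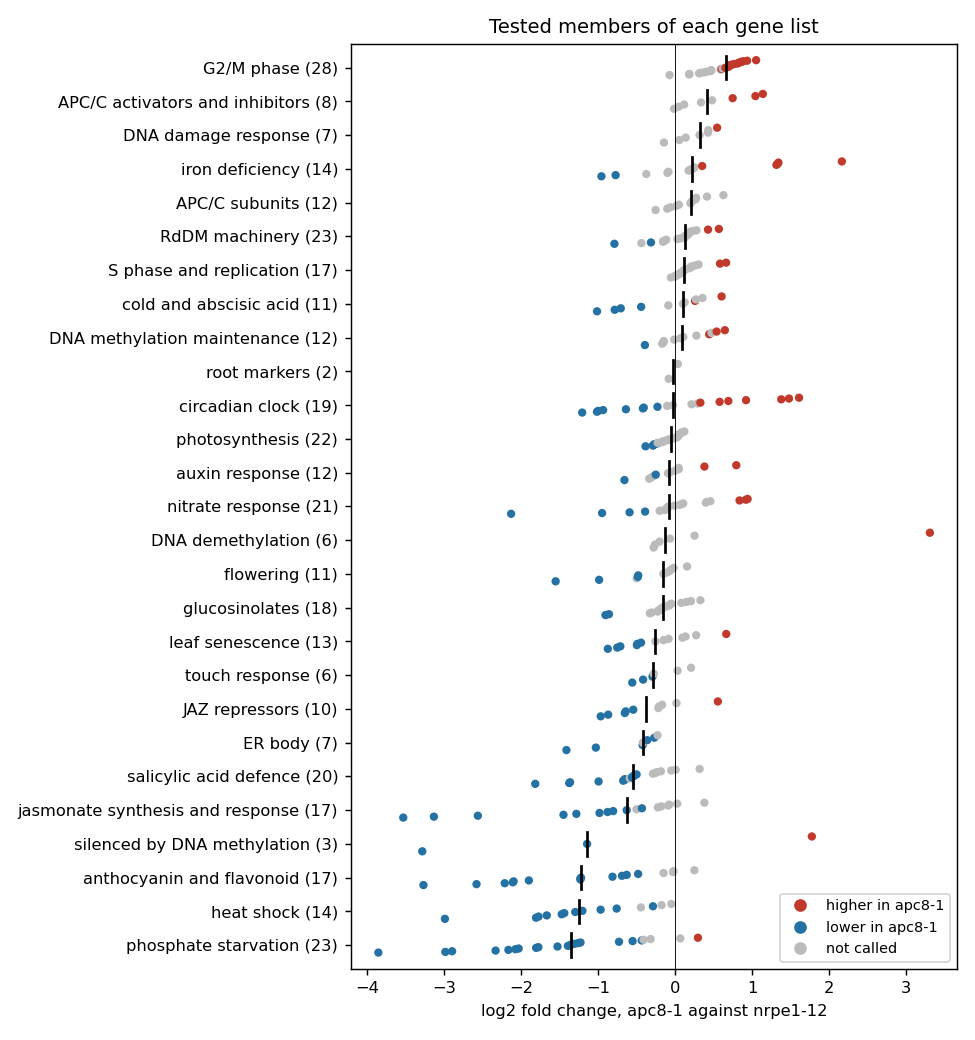
Log2 fold change of apc8-1 against nrpe1-12 for each tested member of 27 gene lists, ordered by the list's median (black tick), with the number tested in brackets. Red points were called higher, blue points lower, grey points not called. The medians run from 0.66 for the G2/M phase to -1.36 for phosphate starvation.

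The phosphate starvation genes were lower in apc8-1 nearly throughout. Of 23 tested (24 listed), 19 were lower (11.7% of all tested loci were) and 1 higher, with a median of -1.36 against 0.00 over all tested loci. Of the 19 that passed the filter through both mutants, 15 were lower. These genes are induced in plants when phosphate runs short, under the transcription factor PHR1, whose own transcript was not called (0.07). PS2 (AT1G73010, chromosome 1, 27464572 to 27466256), a phosphatase, had 4.36 and 4.47 FPKM in apc8-1, 80.0 and 75.0 FPKM in nrpe1-12 and 81.2 and 82.8 FPKM in Col-0 (log2 fold change -3.86, SE 0.07, adjusted p = 1.56e-07). PECP1, which frees phosphate from phosphocholine and phosphoethanolamine, had 1.01 and 1.06 FPKM in apc8-1, 15.3 and 14.98 FPKM in nrpe1-12 and 18.4 and 19.1 FPKM in Col-0 (log2 fold change -2.99, adjusted p = 1.46e-06). SPX3, an SPX domain protein that restrains the response, had 0.814 and 0.713 FPKM in apc8-1, 13.4 and 11.0 FPKM in nrpe1-12 and 16.7 and 17.0 FPKM in Col-0 (log2 fold change -2.90, adjusted p = 5.45e-06). In all 3 both apc8-1 libraries were far below, and nrpe1-12 was close to Col-0. SPX3 passed the filter through nrpe1-12 alone.

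The noncoding RNA AT4, which sequesters the microRNA of the response, had 14.1 and 13.8 FPKM in apc8-1, 64.4 and 68.0 FPKM in nrpe1-12 and 63.0 and 63.0 FPKM in Col-0 (log2 fold change -2.17, adjusted p = 1.32e-06). SQD2, which makes sulfolipid in place of phospholipid, had 24.0 and 22.8 FPKM in apc8-1, 64.8 and 61.5 FPKM in nrpe1-12 and 52.4 and 53.3 FPKM in Col-0 (log2 fold change -1.39, adjusted p = 1.13e-05). The phosphate transporter PHT1;1 had 1.61 and 1.57 FPKM in apc8-1, 9.42 and 9.79 FPKM in nrpe1-12 and 10.5 and 10.3 FPKM in Col-0 (log2 fold change -2.03, adjusted p = 1.41e-05), although it has close paralogs. These genes too were low in apc8-1 only. The lipid genes MGD3 (-2.08) and NPC4 (-2.33), the acid phosphatase PAP17 (-1.23) and SPX1 (-1.81) were lower as well, on the log2 scale. The member called higher was PHO2 (log2 fold change 0.30, adjusted p = 0.0383), a ubiquitin-conjugating enzyme that lowers phosphate transporters, and it was not called without Col-0 replicate 1 or 2, apc8-1 replicate 1 or 2 or nrpe1-12 library a. At 18 of the 19 decreases Col-0 was nearer to nrpe1-12, and at 14 it was above both mutants. With either nrpe1-12 library left out, 14 of 19 tested were lower.

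Anthocyanin and flavonoid genes were lower in 13 of 17 tested cases (23 listed) and higher in none, with a median of -1.22. The share lower was 76.5%, against 11.7% of all tested loci. Of the 14 that passed through both mutants, 10 were lower. DFR (AT5G42800), dihydroflavonol reductase, had 1.33 and 1.24 FPKM in apc8-1, 20.8 and 21.3 FPKM in nrpe1-12 and 10.9 and 10.1 FPKM in Col-0 (log2 fold change -3.27, SE 0.10, adjusted p = 1.32e-06). CHS, chalcone synthase, the entry enzyme of flavonoids, had 3.96 and 4.55 FPKM in apc8-1, 24.5 and 22.3 FPKM in nrpe1-12 and 14.04 and 12.9 FPKM in Col-0 (log2 fold change -2.22, adjusted p = 1.03e-05). In both genes the order was nrpe1-12, Col-0, apc8-1. PAP1, the MYB factor that switches on anthocyanin enzymes, had 1.72 and 2.32 FPKM in apc8-1, 16.4 and 17.64 FPKM in nrpe1-12 and 17.3 and 14.96 FPKM in Col-0 (log2 fold change -2.58, adjusted p = 1.39e-05). Its relative MYB90 had 1.04 and 1.29 FPKM in apc8-1, 7.91 and 6.33 FPKM in nrpe1-12 and 34.5 and 31.8 FPKM in Col-0 (log2 fold change -1.90, adjusted p = 5.69e-05). Of the regulators, PAP1 was as high in nrpe1-12 as in Col-0, and MYB90 was highest in Col-0 and lowest in apc8-1. LDOX (-2.10) and the glutathione transferase TT19 (-2.11) were lower by similar amounts, while the partner proteins TTG1 (-0.03) and EGL3 (0.25) and the repressor MYBL2 (-0.02) were not called. Leaving out nrpe1-12 library a or b left 7 and 6 of 14 tested lower.

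Jasmonate genes were lower in 10 of 17 cases (58.8%, against 11.7% of all tested loci) and higher in none, with a median of -0.63. Of the 16 that passed through both mutants, 9 were lower. Fewer jasmonate genes were lower when any 1 library was left out, and 1 was higher with eBayes without a trend. VSP2 (AT5G24770, chromosome 5, 8500476 to 8502224), a vegetative storage protein that marks the wound branch of the jasmonate response, had 4.34 and 4.79 FPKM in apc8-1, 62.7 and 64.1 FPKM in nrpe1-12 and 5.87 and 6.73 FPKM in Col-0 (log2 fold change -3.53, SE 0.09, adjusted p = 1.16e-06). It was high in both nrpe1-12 libraries only. The defensin PDF1.2a, of the branch that responds to jasmonate with ethylene, had 2.61 and 1.48 FPKM in apc8-1, 25.3 and 25.3 FPKM in nrpe1-12 and 4.70 and 4.70 FPKM in Col-0 (log2 fold change -3.14, adjusted p = 1.92e-05), with nrpe1-12 again alone, though its paralogs are near-identical. The synthesis genes LOX2 (68.7 and 59.8 FPKM in apc8-1, 161 and 154 FPKM in nrpe1-12 and 116 and 118 FPKM in Col-0) and AOS (35.1 and 34.4 FPKM in apc8-1, 70.3 and 69.1 FPKM in nrpe1-12 and 62.2 and 59.7 FPKM in Col-0) were lower too (log2 fold changes -1.28 and -0.98). In both of these apc8-1 was the lowest genotype and Col-0 lay between the mutants. The receptor COI1 (0.03) and the transcription factor MYC2 (-0.09) were not called. Of the 10 JAZ repressors, 5 were lower (50%, against 11.7% of all tested loci) and 1 higher (10%, against 7.53%), with a median of -0.38. Of the 9 that passed through both mutants, 4 were lower and 1 higher. The repressors JAZ3 (-0.97), JAZ1 (-0.65) and JAZ9 (-0.64) were lower. The call of JAZ7, the increase (0.55), was lost without apc8-1 replicate 2 (adjusted p = 0.102), nrpe1-12 library a (adjusted p = 0.07) or b (adjusted p = 0.091). Without apc8-1 replicate 1 or either nrpe1-12 library 3 JAZ genes were lower.

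Salicylic acid defence genes were lower in 12 of 20 tested cases (22 listed) and higher in none, with a median of -0.55. The share lower was 60%, against 11.7% of all tested loci. Of the 18 that passed through both mutants, 10 were lower. WRKY70, a transcription factor between the salicylate and jasmonate branches, had 29.6 and 29.9 FPKM in apc8-1, 79.4 and 77.2 FPKM in nrpe1-12 and 26.7 and 32.4 FPKM in Col-0 (log2 fold change -1.37, adjusted p = 5.37e-05), so nrpe1-12 stood above the others. Its relative WRKY54 had 2.03 and 2.26 FPKM in apc8-1, 7.56 and 6.77 FPKM in nrpe1-12 and 7.80 and 6.58 FPKM in Col-0 (log2 fold change -1.38, adjusted p = 2.66e-04). GRX480, a glutaredoxin induced by salicylate, had 0.997 and 0.995 FPKM in apc8-1, 4.45 and 8.10 FPKM in nrpe1-12 and 6.17 and 5.47 FPKM in Col-0 (log2 fold change -1.82, adjusted p = 0.00106). In these 2 genes apc8-1 stood below the others, and GRX480 passed the filter through nrpe1-12 alone. The marker PR1 had 84.98 and 84.2 FPKM in apc8-1, 119 and 126 FPKM in nrpe1-12 and 69.0 and 68.8 FPKM in Col-0 (log2 fold change -0.53, adjusted p = 5.93e-04), and ICS1, the enzyme of salicylate synthesis, had a log2 fold change of -0.50. PR2 (0.01), PR5 (-0.05) and the receptor NPR1 (-0.29) were not called. In the fits without nrpe1-12 library a or b, 6 and 7 of 18 tested were lower.

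Heat shock genes were lower in 11 of 14 tested cases (18 listed) and higher in none, with a median of -1.25. The share lower was 78.6%, against 11.7% of all tested loci. Of the 12 that passed through both mutants, 9 were lower. HSP17.6A (AT5G12030), a small heat shock protein with close paralogs, had 0.768 and 1.07 FPKM in apc8-1, 12.9 and 15.66 FPKM in nrpe1-12 and 2.199 and 2.09 FPKM in Col-0 (log2 fold change -2.99, SE 0.14, adjusted p = 1.36e-05). HSFA2, a heat-induced transcription factor, had 0.501 and 0.63 FPKM in apc8-1, 4.63 and 4.33 FPKM in nrpe1-12 and 0.911 and 1.16 FPKM in Col-0 (log2 fold change -1.81, adjusted p = 1.66e-04). HSP101, which dissolves protein aggregates, had 2.75 and 2.82 FPKM in apc8-1, 9.27 and 9.30 FPKM in nrpe1-12 and 2.72 and 2.71 FPKM in Col-0 (log2 fold change -1.44, adjusted p = 1.00e-04). In all 3 nrpe1-12 stood far above both other genotypes, and HSFA2 passed the filter through nrpe1-12 alone. HSP90.1 had 5.32 and 5.70 FPKM in apc8-1, 20.6 and 21.95 FPKM in nrpe1-12 and 15.8 and 14.4 FPKM in Col-0 (log2 fold change -1.78, adjusted p = 1.59e-05), with Col-0 between the mutants. HSP70-4 (-1.67) and the coactivator MBF1C (-1.47) were lower as well. At 7 of the 11 decreases Col-0 was nearer to apc8-1. With either nrpe1-12 library left out, 8 of 12 tested were lower.

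The circadian clock genes moved in both directions. Of 19 tested (21 listed), 7 were higher (36.8%, against 7.53% of all tested loci) and 8 lower (42.1%, against 11.7%), with a median of -0.03. Of the 18 that passed through both mutants, 6 were higher and 8 lower. The 8 decreases were CCA1, LHY, RVE1, RVE8, LNK1, LNK2, CDF1 and PRR9. CCA1, a MYB-like repressor with a peak at dawn, had 23.8 and 23.2 FPKM in apc8-1, 48.6 and 47.4 FPKM in nrpe1-12 and 16.8 and 16.7 FPKM in Col-0 (log2 fold change -1.001, SE 0.07, adjusted p = 5.37e-05), and its partner LHY had 8.75 and 8.94 FPKM in apc8-1, 21.6 and 21.96 FPKM in nrpe1-12 and 8.38 and 8.63 FPKM in Col-0 (log2 fold change -1.21, SE 0.08, adjusted p = 5.85e-05). RVE1 (-0.94), RVE8 (-1.02) and LNK2 (-0.64) were lower on the log2 scale. In these 5 genes both nrpe1-12 libraries were the highest. The 7 increases were FKF1, PRR5, LUX, TOC1, GI, ELF3 and PRR7. PRR5, a repressor of the morning genes, had 12.5 and 11.5 FPKM in apc8-1, 4.29 and 3.101 FPKM in nrpe1-12 and 14.8 and 15.5 FPKM in Col-0 (log2 fold change 1.48, adjusted p = 2.23e-04). LUX, of the evening complex, had 11.98 and 13.3 FPKM in apc8-1, 4.30 and 4.17 FPKM in nrpe1-12 and 8.91 and 9.75 FPKM in Col-0 (log2 fold change 1.38, adjusted p = 8.70e-05). FKF1, a blue light receptor, had 3.65 and 3.04 FPKM in apc8-1, 0.505 and 0.341 FPKM in nrpe1-12 and 4.09 and 3.61 FPKM in Col-0 (log2 fold change 1.61, adjusted p = 2.99e-04). FKF1 passed the filter through apc8-1 alone.

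TOC1 (0.92), GI (0.69) and ELF3 (0.58) were also higher, on the log2 scale. In these 3 genes and in PRR5, LUX and FKF1 nrpe1-12 was the lowest genotype, which was not so for PRR7 (0.33), lowest in Col-0. RVE2 (0.29), RVE4 (-0.10), ZTL (-0.03) and CHE (0.21) were not called. At 12 of the 15 called clock genes Col-0 was nearer to apc8-1. The sources used here do not give the time of day of harvest, and its part in the result was not tested. Without nrpe1-12 library b, 6 were higher and 5 lower.

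**Figure D5:**
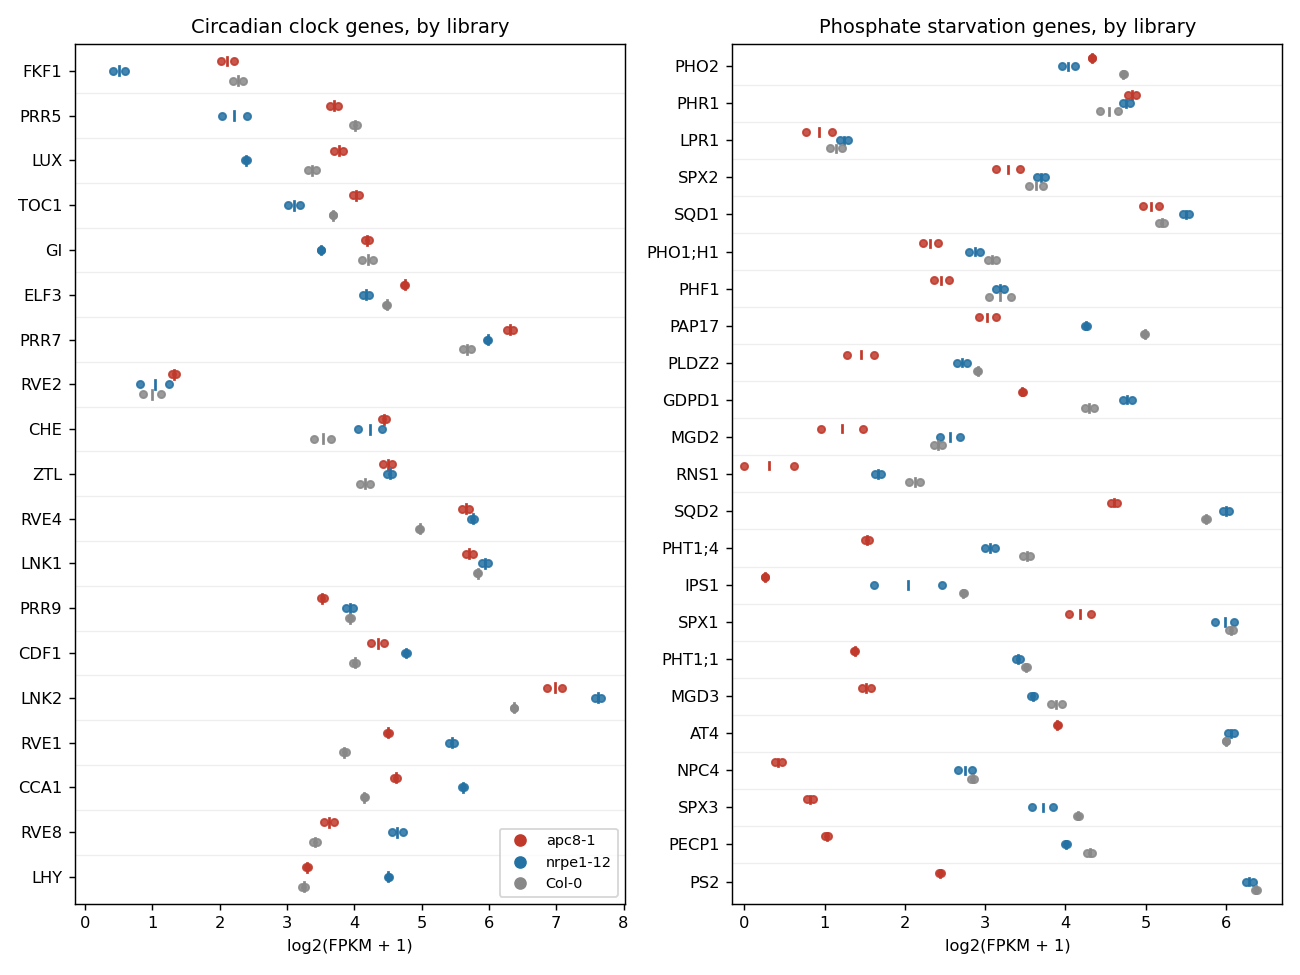
Level of each library, log2(FPKM + 1), for the tested circadian clock genes (left) and phosphate starvation genes (right), each ordered by log2 fold change. Points are libraries (apc8-1 red, nrpe1-12 blue, Col-0 grey) and ticks are means of 2. In the clock panel the blue points stand apart, left at FKF1, PRR5 and LUX and right at LHY and CCA1. In the phosphate panel the red points stand apart, left of both other genotypes at PS2, PECP1 and SPX3.

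Iron deficiency genes were called in 7 of 14 tested cases (23 listed), with a median of 0.22. Of the 14, 5 were higher (35.7%, against 7.53% of all tested loci) and 2 lower (14.3%, against 11.7%). Of the 11 that passed through both mutants, 3 were higher and 1 lower. IMA3, a small peptide that signals iron shortage, had 21.9 and 30.6 FPKM in apc8-1 and 6.03 and 4.09 FPKM in nrpe1-12 (log2 fold change 2.17, SE 0.21, adjusted p = 3.43e-04), with 0.22 and 0 FPKM listed for the wild type. Both mutants were above Col-0, and apc8-1 was above nrpe1-12. IMA2, which resembles it, had 11.4 and 9.21 FPKM in apc8-1 and 2.73 and 4.34 FPKM in nrpe1-12, and its call was lost with a pseudocount of 0.1 (adjusted p = 0.128). BHLH100, a transcription factor induced by iron shortage, had 2.97 and 2.06 FPKM in apc8-1, 0.473 and 0.286 FPKM in nrpe1-12 and 0.416 and 0.558 FPKM in Col-0 (log2 fold change 1.34, adjusted p = 0.00227). It passed the filter through apc8-1 alone. FER1, an iron-storing ferritin, moved the other way, at 91.6 and 88.9 FPKM in apc8-1, 159.9 and 150.3 FPKM in nrpe1-12 and 199 and 206 FPKM in Col-0 (log2 fold change -0.77, adjusted p = 1.01e-04). FIT, the master regulator of iron uptake in roots, was lower as well (-0.96), but FER1 was the only decrease of the list that passed through both mutants. Without apc8-1 replicate 1 there were 2 increases, and without nrpe1-12 library a there was 1 decrease.

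Nitrate genes were higher in 3 (14.3%, against 7.53% of all tested loci) and lower in 4 (19.0%, against 11.7%) of 21 tested cases (23 listed), with a median of -0.08. NIA1, a nitrate reductase, had 37.3 and 39.8 FPKM in apc8-1, 20.19 and 19.0 FPKM in nrpe1-12 and 24.2 and 25.7 FPKM in Col-0 (log2 fold change 0.94, adjusted p = 1.34e-04). BT2, a BTB and TAZ domain protein, had 88.8 and 85.7 FPKM in apc8-1, 47.4 and 49.4 FPKM in nrpe1-12 and 4.99 and 4.21 FPKM in Col-0 (log2 fold change 0.84, adjusted p = 4.21e-04). The repressor LBD38 was higher too (0.92). All 3 were highest in apc8-1, and BT2 was far lower in Col-0 than in either mutant. NRT2.1, a high-affinity nitrate transporter, had 0.112 and 0.329 FPKM in apc8-1, 3.63 and 5.13 FPKM in nrpe1-12 and 9.61 and 10.3 FPKM in Col-0 (log2 fold change -2.13, SE 0.17, adjusted p = 1.34e-04). Its partner protein NRT3.1 had 13.6 and 9.65 FPKM in apc8-1, 23.3 and 22.8 FPKM in nrpe1-12 and 29.1 and 23.8 FPKM in Col-0 (log2 fold change -0.95, adjusted p = 0.00381). For the transporter the order was Col-0, nrpe1-12, apc8-1, and it passed the filter through nrpe1-12 alone. Of the 20 nitrate genes that passed through both mutants, 3 were higher and 3 lower. There were 2 decreases without nrpe1-12 library a and 1 without library b.

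Of 22 nuclear photosynthesis genes 5 were lower (22.7%, against 11.7% of all tested loci) and none higher, with a median of -0.05. The call of RCA (Rubisco activase; 1710.2 and 1589 FPKM in apc8-1, 2173 and 2133 FPKM in nrpe1-12 and 1031 and 1135 FPKM in Col-0; log2 fold change -0.39) was lost without nrpe1-12 library a (adjusted p = 0.0506), and without that library limma called none of the 22. Without Col-0 replicate 1 or 2 or nrpe1-12 library b 3 were lower, and without apc8-1 replicate 2 there were 2. Leaf senescence genes were lower in 6 of 13 tested cases (46.2%, against 11.7% of all tested loci) and higher in 1 (7.69%, near 7.53%). Their median was -0.26. NAP, a transcription factor of senescence, had 75.1 and 72.7 FPKM in apc8-1, 131 and 141 FPKM in nrpe1-12 and 192 and 197 FPKM in Col-0 (log2 fold change -0.88, adjusted p = 6.87e-05). SEN1, a gene induced in the dark, had 828 and 815 FPKM in apc8-1, 512 and 524 FPKM in nrpe1-12 and 456 and 435 FPKM in Col-0 (log2 fold change 0.66, adjusted p = 1.73e-04). NAP was lowest and SEN1 highest in apc8-1. Without apc8-1 replicate 1, 3 senescence genes were lower, and without nrpe1-12 library a 2 were higher. The protease SAG12 was below the filter, with 0.0609 and 0 FPKM in apc8-1 and 0.638 and 0.838 FPKM in nrpe1-12, against 75.3 and 75.6 FPKM in Col-0.

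ER bodies are compartments of beta-glucosidases in Brassicaceae. Of 7 tested ER body genes 5 were lower (71.4%, against 11.7% of all tested loci) and none higher, with a median of -0.42. Of the 6 that passed through both mutants, 4 were lower. TSA1, an ER body protein, had 11.5 and 11.6 FPKM in apc8-1, 24.2 and 25.2 FPKM in nrpe1-12 and 16.8 and 17.36 FPKM in Col-0 (log2 fold change -1.03, adjusted p = 8.08e-05), and the beta-glucosidase BGLU22 had 0.152 and 0.409 FPKM in apc8-1, 2.39 and 2.40 FPKM in nrpe1-12 and 6.41 and 6.09 FPKM in Col-0 (log2 fold change -1.41, adjusted p = 5.58e-04). TSA1 was highest in nrpe1-12, and BGLU22 in Col-0. BGLU22 passed the filter through nrpe1-12 alone. Without nrpe1-12 library b 2 of these genes were lower. Of 18 tested glucosinolate genes none was higher, except 1 without apc8-1 replicate 2, and 2 were lower (11.1%, near the 11.7% of all tested loci), MAM3 (-0.91) and CYP79F1 (-0.86), which act in the aliphatic branch and have close paralogs. Of 6 tested touch genes 3 were lower (50%, against 11.7% of all tested loci), and fewer were lower when any 1 library was left out. Fewer were also lower with no filter, with quantile normalization, in the fit of the mutant libraries alone and with eBayes without a trend. TCH3, a calmodulin-like gene, had 272 and 259 FPKM in apc8-1, 377 and 405 FPKM in nrpe1-12 and 158 and 151 FPKM in Col-0 (log2 fold change -0.56, adjusted p = 7.15e-04).

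Of 11 tested flowering genes 4 were lower (36.4%, against 11.7% of all tested loci) and none higher, with a median of -0.15. MAF5, a MADS-box relative of FLC, had 0.159 and 0.543 FPKM in apc8-1, 3.32 and 2.57 FPKM in nrpe1-12 and 8.66 and 9.32 FPKM in Col-0 (log2 fold change -1.55, adjusted p = 7.48e-04). It passed the filter through nrpe1-12 alone, and of the 9 flowering genes that passed through both mutants 3 were lower. The repressor FLC had 0.801 and 1.49 FPKM in apc8-1, 3.57 and 2.87 FPKM in nrpe1-12 and 2.73 and 2.99 FPKM in Col-0 (log2 fold change -0.99, adjusted p = 0.00808), and its call was lost without nrpe1-12 library a (adjusted p = 0.0584). Both were lowest in apc8-1. With nrpe1-12 library a left out none of these genes was called, and with library b left out 2 were. Of 12 tested auxin genes 2 were higher (16.7%, against 7.53% of all tested loci) and 2 lower (16.7%, against 11.7%). The repressors IAA29 (0.79) and IAA7 (0.38) were the increases. Without apc8-1 replicate 2 or nrpe1-12 library a no auxin gene was lower, and without library b 1 was. Of 11 tested cold and abscisic acid genes 2 were higher (18.18%, against 7.53% of all tested loci) and 4 lower (36.4%, against 11.7%). KIN1 had 3.07 and 3.66 FPKM in apc8-1, 7.17 and 8.496 FPKM in nrpe1-12 and 10.9 and 12.9 FPKM in Col-0 (log2 fold change -1.02, adjusted p = 0.0015), and the zinc finger genes ZAT12 (-0.79) and ZAT10 (-0.71) were lower. There was 1 increase without Col-0 replicate 1 or 2 or apc8-1 replicate 1, and none without apc8-1 replicate 2 or nrpe1-12 library a or b.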

How the data were processed

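The deposited values are FPKM per locus, made by the authors; TAIR10, TopHat2 2.0.13, Cufflinks 2.2.1 and Cuffnorm 2.2.1 are named in the submitters' processing notes. Both nrpe1-12 columns carry the same name and are called libraries a and b in table order. Values were tested as log2(FPKM + 1) with limma 3.58.1 in R 4.3.3 (lmFit, eBayes with a trend) in 1 model for the 3 genotypes (6 libraries; residual degrees of freedom 3, prior 5.02), adjusted by Benjamini-Hochberg, after a check on simulated data. Depth was estimated from the steps between values of single-exon loci over 1500 bases. Between 99.0 and 100% of these were whole fragments within 0.15. An exact permutation test of 2 against 2 libraries cannot go below p = 0.333, so the p-values rest on the spread pooled over loci. Symbols came from the gene lists or else from RefSeq, which held 97.9% of the single-gene loci. Genes without a symbol keep their locus name. Coordinates are TAIR10, as deposited. No sequences were used here.

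The comparison, the 27 lists (445 genes) and the naming rule were chosen with earlier results of these data known. Named were the 12 largest called changes each way whose higher mutant averaged 5 FPKM or more and whose libraries did not overlap, the 6 largest at 20 FPKM or more in both mutants, APC8, NRPE1, DMS3, ROS1, in each list the 5 members of smallest p, and 5 each way per noncoding class. Other list members are given after their values were seen.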

Additional observations from a re-analysis of the deposited data

How the results depend on the processing

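Tried were pseudocounts of 0.1 and 0.5, testing all loci without a filter, a filter of 5 FPKM, median-of-ratios scaling, quantile normalization, organelle and ribosomal RNA genes left out, the 4 mutant libraries alone, eBayes without a trend or robust, and each library left out. Outside the last kind, 934 (no filter) to 1570 (quantile normalization) loci were called higher and 1636 (filter of 5 FPKM) to 2072 (median-of-ratios scaling) lower, against 1305 and 2026. Leaving out 1 library gave 656 to 1064 higher and 1034 to 1790 lower loci. The fits without a mutant library assume that the lone library varies like the other genotypes. Of 166 named called loci, 118 kept their call in every alternative in which they were tested, and no named locus reversed. No scaling moved the median over all loci beyond 0.04.

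Some list medians near 0 changed sign. With the filter of 5 FPKM the median was -0.15 for methylation maintenance and 0.024 for demethylation. With organelle genes left out it was 0.0016 for root markers and 0.00079 for the clock, which had 0.00088 with quantile normalization and 0.20 without the filter. Leaving out 1 library at a time, it ranged from -2.24 to 0.37 for genes silenced by methylation (0.37 and 0.26 without nrpe1-12 library a and b), from -0.12 to 0.00057 for photosynthesis, from -0.11 to 0.058 for root markers, from -0.16 to 0.14 for cold and abscisic acid (-0.13 without apc8-1 replicate 1) and from -0.12 to 0.0097 for the clock. For genes silenced by methylation, SDC was not tested in the fits without an nrpe1-12 library. The cause of the other sign changes was not tested. Low levels rest on few fragments, so differences there may not be detectable. No paired analysis was possible because both nrpe1-12 columns carry the same replicate number.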
